A study of Mus musculus with 6 samples.

Results

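The transcripts examined here encode 10 transcription factors of the exocrine pancreas and its progenitors: Ptf1a, Bhlha15, Rbpjl, Nr5a2, Pdx1, Gata6, Sox9, Foxa2, Foxa3 and Xbp1. They are a list of genes given by name, drawn up with earlier results of these data known but with no threshold on a measured value, and make up 10 of the 142314 transcript rows deposited for each library. Ribosome-protected fragments (footprints, the stretches of mRNA that a ribosome shields from nuclease) were counted in 266-6, a mouse cell line derived from pancreatic acinar cells, in 3 wild-type (WT) libraries and 3 Mettl18 knockout (KO) libraries. Cells of both genotypes had been transfected with a Reg1-FLAG plasmid and kept for 48 h, and lysates contained 100 μg/ml cycloheximide, which holds ribosomes in place. The labels do not say whether the KO cells were 1 clone or whether replicates were grown apart, so the tests below judge differences against a spread between libraries that may be technical only. METTL18 methylates a histidine of the ribosomal protein RPL3, and the study asked how its loss changes translation in acinar cells.

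The deposited files carry transcript identifiers and no gene names. Each identifier was paired with its factor by the given list, and a row was kept only where its deposited length value equalled the residues of the factor's protein minus 9. All 10 rows met this rule, and their order in the files was the order of the 10 genes along the GRCm38.p6 chromosomes in RefSeq. None of the 10 rows shared its 6 counts with another row. Other acinar, duct, endocrine or immune markers and Mettl18 itself were not analysed here. The cell type was therefore checked only through these factors, and the genotype labels were not checked.

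In the pancreas, PTF1A joins an E protein and either RBPJ or its acinar-restricted relative RBPJL to form PTF1, the trimeric complex that drives digestive enzyme genes. NR5A2 (LRH-1) and BHLHA15 (MIST1) work with it to keep acinar cells mature and secretory. PDX1, SOX9, GATA6 and the FOXA proteins mark the endoderm and pancreatic progenitors, and SOX9 is later kept mainly in duct and centroacinar cells. XBP1 is the transcription factor of the unfolded protein response that builds up the secretory pathway.

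PTF1 binds a bipartite DNA site, an E-box (CANNTG) followed or preceded by a TC-box, whose core is TGGGAA on either strand. Promoters of 3 factors are shown. Ptf1a and Rbpjl were chosen as partners in this complex, with a call for Ptf1a and none for Rbpjl. Pdx1 was added because its level relative to Ptf1a was higher in all KO libraries than in any WT library, though narrowly. Each run holds 300 bases, 250 before the annotated start and 50 after it, from RefSeq on GRCm38.p6, and capitals mark both motifs.
Ptf1a, chr2:19445413-19445712, plus strand: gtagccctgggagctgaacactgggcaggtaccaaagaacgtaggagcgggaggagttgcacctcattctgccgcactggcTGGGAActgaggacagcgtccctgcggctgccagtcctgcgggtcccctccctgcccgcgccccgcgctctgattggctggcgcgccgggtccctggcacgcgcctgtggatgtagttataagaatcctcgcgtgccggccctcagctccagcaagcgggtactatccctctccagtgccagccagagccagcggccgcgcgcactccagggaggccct
Rbpjl, chr2:164402944-164403243, plus strand: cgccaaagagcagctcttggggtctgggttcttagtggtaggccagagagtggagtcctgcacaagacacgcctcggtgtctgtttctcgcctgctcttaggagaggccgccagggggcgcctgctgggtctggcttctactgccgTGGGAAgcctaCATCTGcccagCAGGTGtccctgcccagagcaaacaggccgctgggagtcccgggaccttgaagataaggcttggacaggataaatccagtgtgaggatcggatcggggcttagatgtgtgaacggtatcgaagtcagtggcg
Pdx1, chr5:147269847-147270146, plus strand: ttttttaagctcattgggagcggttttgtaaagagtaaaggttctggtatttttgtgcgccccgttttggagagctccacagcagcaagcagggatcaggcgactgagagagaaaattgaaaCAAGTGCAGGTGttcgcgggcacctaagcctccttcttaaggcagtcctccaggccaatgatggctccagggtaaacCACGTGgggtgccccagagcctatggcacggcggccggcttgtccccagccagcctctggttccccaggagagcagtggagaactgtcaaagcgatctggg
The Rbpjl window held 1 TGGGAA that began 104 bases before the start, and E-boxes that began 93 and 82 bases before it, so the motifs lay 11 and 22 bases apart. The annotated start used for this window lies inside the span that RefSeq gives for the Rbpjl gene (chr2:164403081-164415448). The Rbpjl motifs also lie within that span, whereas the starts used for Ptf1a and Pdx1 are those of their gene spans. The Ptf1a window held 1 TGGGAA and no CANNTG. The Pdx1 window held 3 E-boxes and no TGGGAA. RefSeq gave 11 windows for 8 of the 10 factors, and the Rbpjl window was the 1 among them with both motifs 6 to 25 bases apart and not overlapping. In Xbp1 a TTCCCA overlapped an E-box and was not counted as such a pair. Among all 32851 windows, 72.3% held CANNTG, 25.6% held TGGGAA and 5.07% held the pair. These matches describe letters in the windows. Binding was not measured.

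Footprints on 5 of the 9 factors that could be tested were higher in Mettl18 KO cells: Sox9, Pdx1, Gata6, Ptf1a and Nr5a2, by 1.56-fold to 2.68-fold. Footprints on Foxa2, Xbp1, Rbpjl and Foxa3 did not pass the test, and Bhlha15 had too few counts to enter it. Calls came from edgeR (quasi-likelihood F-test) at a Benjamini-Hochberg adjusted p under 0.05, taken over all 30588 transcripts that entered the fit. Over all tested transcripts, 5.14% were called higher in KO and 4.30% lower. By edgeR 0 factors were called lower, and DESeq2's Wald test and limma-voom called 0 lower too. With no adjustment of p, 6 were higher and 0 lower at 0.05. The shares above are for adjusted p and cannot be set beside this count, and the matching share over all transcripts is not given here. The median log2 fold change of the 9 was 0.64, against -0.06 over all tested transcripts. Each of the 5 called factors had at least 37 counts in every WT library, so none entered the test through its KO counts alone. These are footprint levels without RNA-seq beside them, so mRNA amount and translation per mRNA cannot be told apart.

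The KO libraries were deeper, with 5379044 to 7106203 counts after rows with identical counts were merged, against 3792964 to 5131937 in WT. Levels below are therefore TMM-scaled CPM (counts brought to a common library total, with edgeR's TMM factors for composition), and the fit was repeated on libraries thinned to the smallest total, in 10 draws. Sox9, Pdx1, Gata6 and Nr5a2 were called higher in all 10 draws, and Ptf1a in 2 of them, with log2 changes of 0.58 to 0.74 and adjusted p of 0.0379 to 0.0808. KO replicates 2 and 3 were the closest pair of a genotype (their log2 CPM values correlated at a Pearson's r of 0.985 over transcripts, which are not independent, against 0.916 to 0.969 for the other pairs), and 4 of the 5 calls needed both. With this pair summed as 1 library, without KO replicate 2, or without KO replicate 3, Sox9 was the 1 factor that passed. Its adjusted p was then 0.0365, 0.038 and 0.0386. Without WT replicate 1, Sox9, Pdx1 and Gata6 passed. The plot of changes with 1 library left out shows these values.

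**Figure D1:**
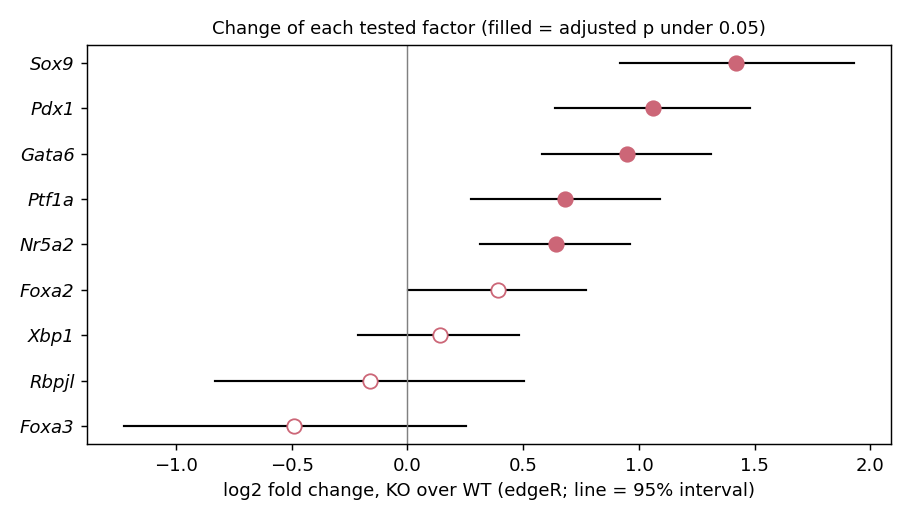
Log2 fold change of each of the 9 tested factors, KO over WT, on the horizontal axis. Points are edgeR estimates over 3 WT and 3 KO libraries, lines are 95% intervals, and filled points had an adjusted p under 0.05. Sox9, at 1.42, lies farthest to the right, and the lines of Xbp1, Rbpjl and Foxa3 cross 0.

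Of the acinar factors, Ptf1a and Nr5a2 rose. Ptf1a (ENSMUST00000028068.2, chr2:19445663-19447501), the factor that specifies the pancreas and later drives acinar genes, was at 48.6, 73.4 and 55.0 CPM in WT replicates 1 to 3 and at 85.3, 93.4 and 104.7 CPM in the KO replicates. The genotypes did not overlap, and WT replicate 2 lay nearest to the KO libraries. Its mean went from 59.0 ± 12.9 to 94.4 ± 9.75 CPM (SD, n = 3 each), a log2 change of 0.68 (SE 0.18; adjusted p = 0.0463 by edgeR), with a 95% interval of 1.21-fold to 2.13-fold. This call was the weakest of the 5. The adjusted p was 0.135 without WT replicate 1, 0.0627 without WT replicate 3, 0.0575 without KO replicate 1, 0.175 without KO replicate 2, 0.213 without KO replicate 3 and 0.183 with KO replicates 2 and 3 summed, while the log2 fold change stayed between 0.55 and 0.87 in all 18 alternatives.

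Nr5a2 (ENSMUST00000027649.13, chr1:136842562-136960448), an orphan nuclear receptor that acts on acinar enzyme genes together with PTF1, was at 56.0, 67.8 and 59.9 CPM in WT and at 89.9, 98.5 and 97.2 CPM in KO. Every KO library lay above every WT library, with a narrow spread in both genotypes. The mean rose from 61.2 ± 6.03 to 95.2 ± 4.62 CPM (SD, n = 3), a log2 change of 0.64 (SE 0.14; adjusted p = 0.0248 by edgeR). The adjusted p was 0.0894 without WT replicate 1, 0.154 without KO replicate 2, 0.137 without KO replicate 3 and 0.135 with that pair summed. Of the rows within 5 lines of it, 3 had counts within 2-fold of its own in every library. They had length values of 490, 490 and 530 and log2 fold changes of 0.63, 0.63 and 0.65, and they hold largely the same footprints, so they are no separate evidence.

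Rbpjl (ENSMUST00000017151.1, chr2:164403081-164415448), the acinar partner of PTF1A in the mature PTF1 complex, did not pass the test, unlike Ptf1a. It was at 54.7, 21.7 and 45.3 CPM in WT and at 45.5, 31.6 and 32.0 CPM in KO. The genotypes overlapped, and WT replicate 2 was the lowest of the 6 libraries although it was the highest of the WT libraries for Ptf1a. The 78 counts of that library gave a 95% Poisson interval of 17.1 to 27.1 CPM, apart from 48.0 to 62.0 CPM in WT replicate 1 and 39.9 to 51.3 CPM in WT replicate 3; these intervals cover counting error only. The mean was 40.6 ± 17.0 CPM in WT and 36.4 ± 7.95 CPM in KO (SD, n = 3), and the log2 change was -0.16 (SE 0.30; adjusted p = 0.764 by edgeR). Its 95% interval ran from 0.563-fold to 1.42-fold. This overlapped the interval of Ptf1a, 1.21-fold to 2.13-fold. Overlap of intervals cannot decide whether the changes of Rbpjl and Ptf1a differed, and that difference was not tested. Leaving out WT replicate 1 gave a log2 change of 0.07 and leaving out WT replicate 2 gave -0.45, and the sign thus hung on WT replicate 1.

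Bhlha15 (ENSMUST00000060747.7, chr5:144190286-144194441), a factor of mature secretory cells that shapes the acinar secretory apparatus, had few footprints in these cells. Its counts were 3, 1 and 4 in WT and 11, 20 and 9 in KO, or 0.675, 0.278 and 0.728 CPM against 1.56, 2.96 and 1.78 CPM. The KO libraries were all higher, but all 6 values were low. Over the pooled counts, 8 in WT and 40 in KO, the depth-adjusted ratio of KO to WT was 3.59, and counting error alone put it between 1.66 and 8.88 (exact binomial, 95%). It did not pass the filter on low counts, and with no filter its log2 fold change was 1.83 (edgeR adjusted p = 0.0595).

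**Figure D2:**
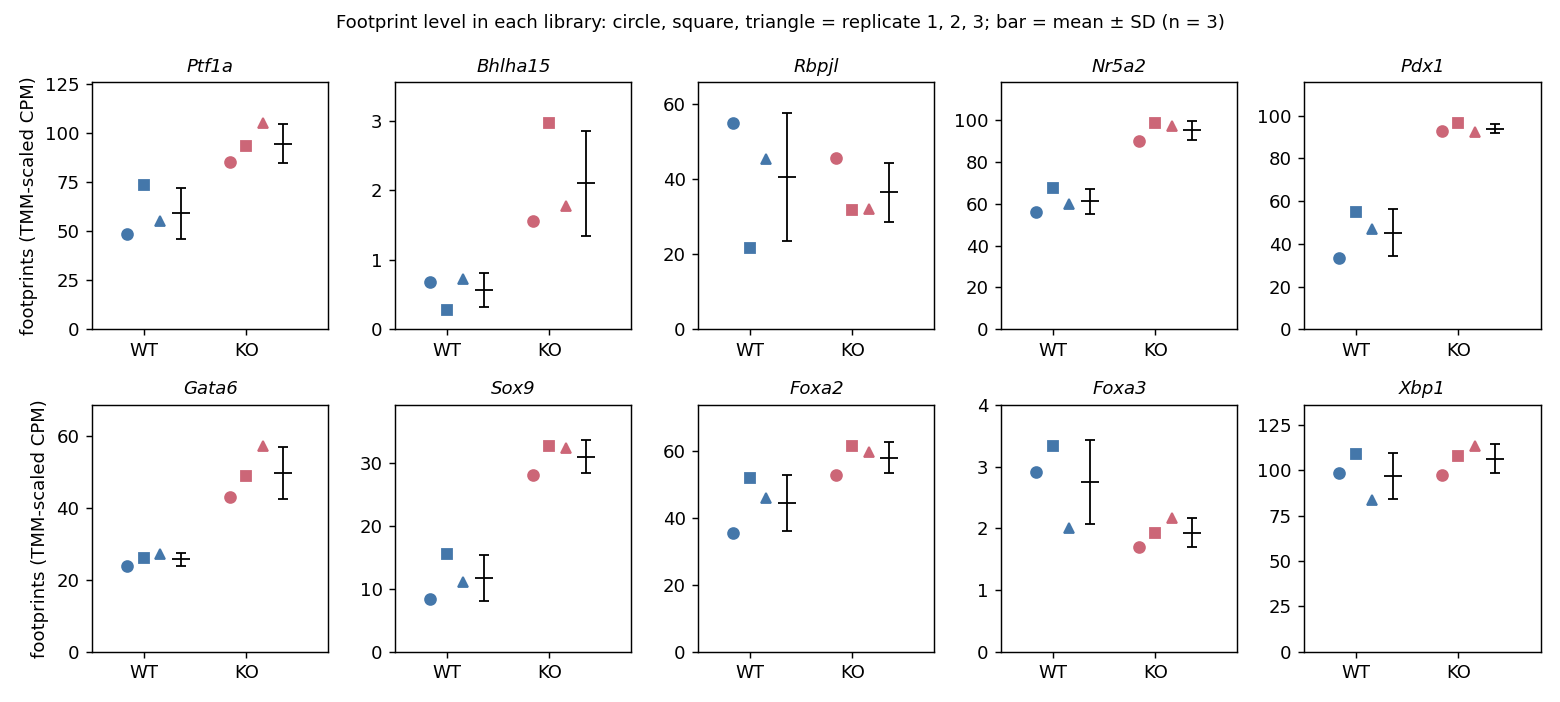
Footprint level of each factor in TMM-scaled CPM on a linear axis from 0, 1 panel per factor, WT libraries in blue and KO libraries in red. Symbols give the replicate number and bars give the mean ± SD (n = 3). The KO libraries lie above all WT libraries for 7 of the 10 factors (6 of the 9 tested, against 15.5% of all tested transcripts), and for Rbpjl WT replicate 2 lies far below WT replicates 1 and 3.

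Among the endoderm and progenitor factors, Sox9, Pdx1 and Gata6 rose and Foxa2 and Foxa3 did not pass the test. Sox9 (ENSMUST00000000579.2, chr11:112782210-112787757), an HMG-box factor of pancreatic progenitors and ducts, had the largest fold change of the tested factors. It was at 8.32, 15.6 and 11.1 CPM in WT and at 28.1, 32.8 and 32.4 CPM in KO. The lowest KO library was well above the highest WT library, WT replicate 2. The mean rose from 11.7 ± 3.66 to 31.1 ± 2.59 CPM (SD, n = 3), a log2 change of 1.42 (SE 0.23; adjusted p = 0.0058 by edgeR), or 2.68-fold with a 95% interval of 1.89-fold to 3.81-fold. This log2 fold change was higher than that of 98.7% of all tested transcripts. Sox9 passed in each of the 18 alternatives, at log2 changes of 1.22 to 1.67 and adjusted p of 2.4e-05 to 0.0386.

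Pdx1 (ENSMUST00000085591.6, chr5:147270097-147275848), the homeodomain factor of the early pancreas that adult tissue keeps mainly in beta cells and at a low level in acinar cells, was at 33.3, 55.0 and 47.0 CPM in WT and at 92.8, 96.3 and 92.4 CPM in KO. The KO libraries were nearly level with each other, whereas WT replicate 1 was low among the WT libraries. The mean rose from 45.1 ± 11.0 to 93.8 ± 2.16 CPM (SD, n = 3), a log2 change of 1.06 (SE 0.19; adjusted p = 0.00961 by edgeR). The adjusted p was 0.0581 without KO replicate 2, 0.0542 without KO replicate 3 and 0.0546 with the pair summed, at log2 fold changes of 1.05, 1.07 and 1.06.

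Gata6 (ENSMUST00000047762.9), a zinc-finger factor needed for the developing pancreas and for acinar identity, was at 23.8, 26.1 and 27.3 CPM in WT and at 43.1, 48.9 and 57.3 CPM in KO. The WT libraries lay close together and all KO libraries lay above them. The mean rose from 25.8 ± 1.76 to 49.8 ± 7.11 CPM (SD, n = 3), a log2 change of 0.95 (SE 0.16; adjusted p = 0.00846 by edgeR). The adjusted p was 0.0531 without KO replicate 2, 0.0638 without KO replicate 3 and 0.0531 with the pair summed.

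Foxa2 (ENSMUST00000047315.9, chr2:148042877-148046969), a forkhead pioneer factor of endoderm, was at 35.5, 52.0 and 45.9 CPM in WT and at 52.9, 61.5 and 59.6 CPM in KO. The groups did not overlap, but KO replicate 1 was only just above WT replicate 2. The mean was 44.5 ± 8.32 CPM in WT and 58.0 ± 4.52 CPM in KO (SD, n = 3), and the log2 fold change of 0.39 ± 0.17 (SE) did not pass (edgeR adjusted p = 0.191). Its 95% interval ran from 1.00-fold to 1.71-fold. Such a lack of overlap was seen for 15.5% of all tested transcripts, so it alone says little. Neighbouring rows with length values of 456 and 266, which hold many of the same footprints, had log2 fold changes of 0.37 and 0.46 and did not pass either.

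Foxa3 (ENSMUST00000036018.5, chr7:19013283-19023539), its relative in endoderm and liver, was near the lower limit of what could be tested, with 11 to 13 counts in every library. That was 2.92, 3.34 and 2.00 CPM in WT and 1.70, 1.93 and 2.17 CPM in KO, with overlap between WT replicate 3 and KO replicate 3. The mean was 2.75 ± 0.683 CPM in WT and 1.93 ± 0.235 CPM in KO (SD, n = 3), and the log2 change was -0.49 (SE 0.33; adjusted p = 0.385 by edgeR). The pooled 36 counts in each genotype gave a depth-adjusted ratio of 0.718, and counting error alone put it between 0.439 and 1.17 (exact binomial, 95%).

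**Figure D3:**
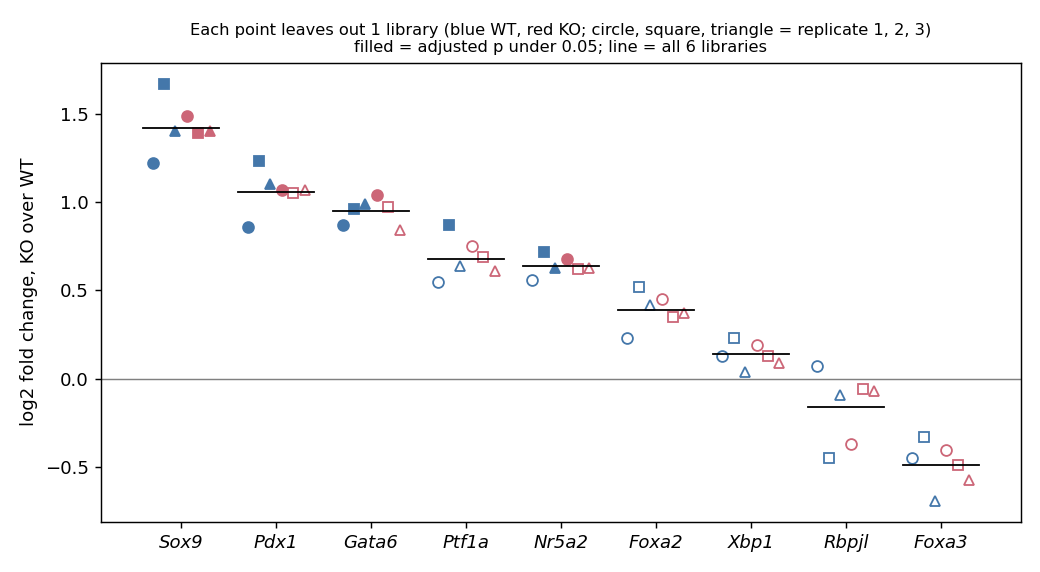
Log2 fold change of each tested factor with all 6 libraries (black line) and with 1 library left out at a time (points; blue where a WT library was left out, red where a KO library was, with the symbol giving its replicate number). Filled points had an edgeR adjusted p under 0.05. All Sox9 points are filled, the Pdx1 and Gata6 points without KO replicate 2 or 3 are open, and Rbpjl has points on both sides of 0.

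Xbp1 (ENSMUST00000063084.15, chr11:5520641-5525993), the secretory pathway factor, did not pass the test. The row is that of the unspliced form, whose mRNA the stress sensor IRE1 cuts and rejoins to give the active factor. It was at 98.5, 108.7 and 83.4 CPM in WT and at 97.6, 108.0 and 113.4 CPM in KO. The genotypes overlapped, with WT replicate 2 above KO replicates 1 and 2. The mean was 96.9 ± 12.7 CPM in WT and 106.3 ± 8.01 CPM in KO (SD, n = 3), and the log2 change was 0.14 (SE 0.16; adjusted p = 0.616 by edgeR), with a 95% interval of 0.864-fold to 1.40-fold. Neighbouring rows with length values of 362 and 205, which hold most of the same footprints, had log2 fold changes of 0.16 and 0.21. The row of length value 362 held 31, 39 and 31 more counts than the Xbp1 row in WT and 86, 63 and 52 more in KO. These are raw counts that were not scaled for the deeper KO libraries. They therefore do not show a difference between the genotypes. Counts per row do not show which form a footprint came from, so splicing of Xbp1 was not measured.

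Levels can be set against each other only per length, as TMM-scaled CPM per 1000 of the deposited length value. On this scale Xbp1 was highest in WT, at 375.4 ± 49.4, and its mean over all 6 libraries exceeded that of 94.8% of 29757 tested transcripts (those whose length value was 50 or more). Ptf1a (187.2 ± 40.9) and Pdx1 (164.0 ± 40.0) followed, and their WT libraries overlapped. Nr5a2 (111.1 ± 10.9), Foxa2 (98.8 ± 18.5) and Rbpjl (80.1 ± 33.6) came next and overlapped in turn. Gata6 (44.4 ± 3.04) overlapped the wide range of Rbpjl, and Sox9 (23.4 ± 7.34) lay below Gata6 in every WT library. Foxa3 (8.01 ± 1.98) and Bhlha15 (2.98 ± 1.31) were lowest (SD, n = 3 for each). Averaged over all 6 libraries, 5.53% of tested transcripts had a lower level per length than Foxa3 and 5.95% had a lower one than Bhlha15. For the acinar factors Ptf1a, Nr5a2 and Rbpjl these shares were 91.4%, 85.4% and 72.6%, so the acinar markers among the 10 were present except for Bhlha15, which was near the floor.

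In KO cells neighbours in this order changed places in 3 pairs. Xbp1 stayed highest at 412.1 ± 31.1 per 1000 of the length value, and Pdx1 (341.3 ± 7.84) now came before Ptf1a (299.8 ± 30.9). The KO libraries of Pdx1 (336.1 to 350.3) and Ptf1a (270.7 to 332.3) did not overlap, by a small margin. Bhlha15 (11.2 ± 4.02) came before Foxa3 (5.62 ± 0.683), and the libraries of these factors did not overlap in either genotype, at few counts. Gata6 (85.8 ± 12.3) came before Rbpjl (71.9 ± 15.7), with overlap, and Sox9 (62.4 ± 5.21) overlapped Rbpjl. Sox9, which in WT was below every library of Rbpjl, thus reached its range in KO.

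**Figure D4:**
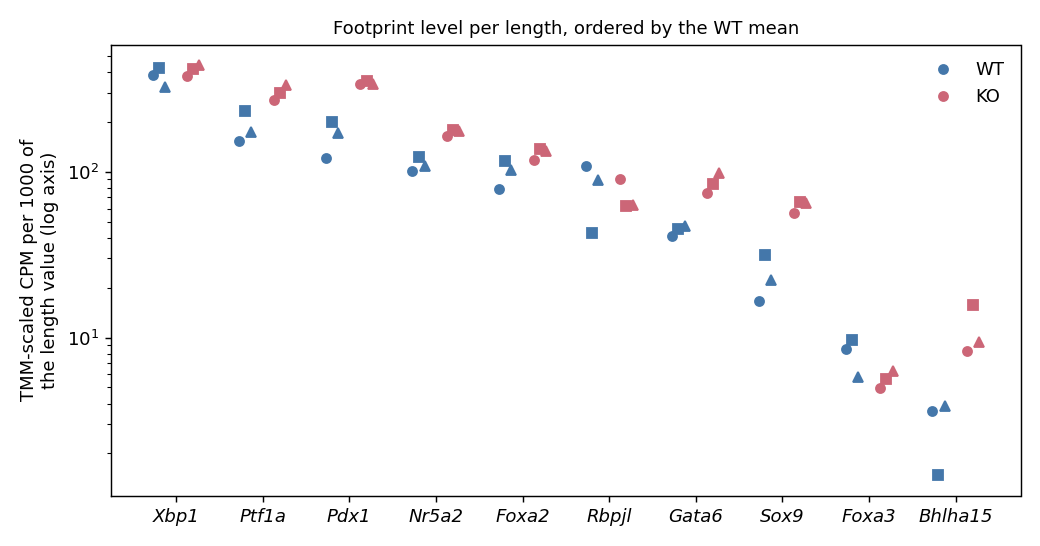
Footprint level per length of the 10 factors, in TMM-scaled CPM per 1000 of the deposited length value on a log axis, ordered by the WT mean. Each symbol is 1 library, WT in blue and KO in red, and its shape gives the replicate number. Xbp1 is highest and Foxa3 and Bhlha15 are lowest in both genotypes.

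The balance between factors was also read within each library, as the level per length of a factor divided by that of Ptf1a, which no library scaling can change. Relative to Ptf1a, Sox9 was at 0.108, 0.134 and 0.128 in WT and at 0.208, 0.222 and 0.196 in KO. Pdx1 was at 0.785, 0.859 and 0.979 in WT and at 1.25, 1.18 and 1.01 in KO. Both were thus higher in every KO library than in any WT library, although Ptf1a itself had risen. For Pdx1 the margin was small, with 1.01 in KO replicate 3 against 0.979 in WT replicate 3. Gata6 moved less on this scale, from 0.267, 0.193 and 0.270 to 0.275, 0.284 and 0.297, and Bhlha15, at few counts, also lay higher in all KO libraries. Over all tested transcripts, 1.91% had a ratio to Ptf1a that was higher in every KO library than in every WT library.

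Xbp1 went from 2.48, 1.81 and 1.85 times the level of Ptf1a in WT to 1.40, 1.41 and 1.32 times in KO, and Foxa2 and Foxa3 likewise lay lower relative to Ptf1a in every KO library. This direction was common, as 52.8% of tested transcripts had a lower ratio to Ptf1a in every KO library than in every WT library. Nr5a2 kept step with Ptf1a, at 0.659, 0.528 and 0.623 in WT and 0.603, 0.603 and 0.531 in KO. Rbpjl was at 0.700, 0.184 and 0.513 of the level of Ptf1a in WT and at 0.332, 0.210 and 0.190 in KO. The KO values lay within the WT range, because WT replicate 2 was as low as the KO libraries. With 3 libraries against 3, an exact two-sided permutation test of such a ratio cannot go below 0.1, so these ratios are given without a test.

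**Figure D5:**
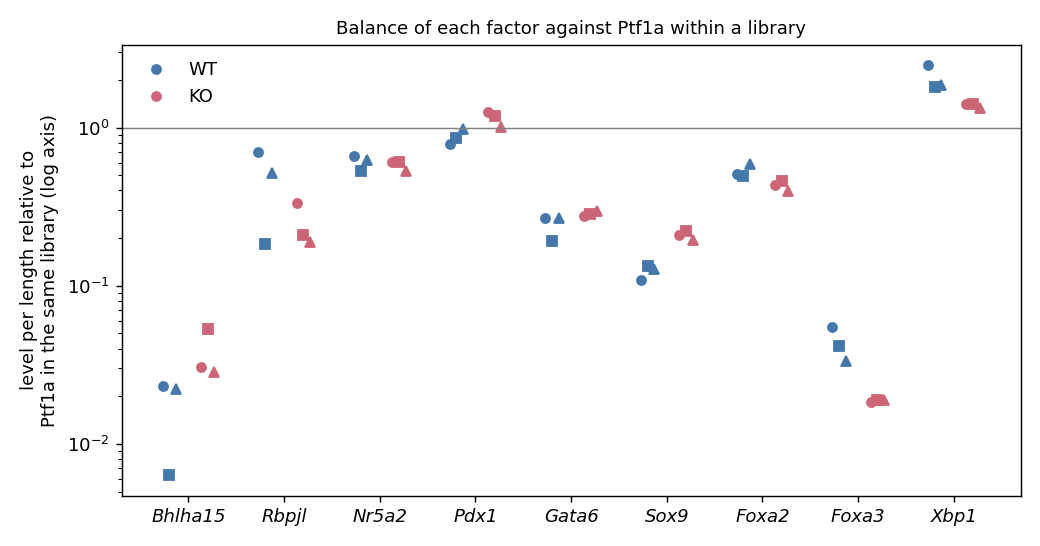
Level per length of each of 9 factors divided by that of Ptf1a in the same library, on a log axis, with WT libraries in blue and KO libraries in red; the grey line marks equality with Ptf1a. Pdx1 crosses the line between genotypes, Sox9 shifts up, Xbp1 shifts down and Nr5a2 stays in place.

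The WT libraries differed among themselves in these factors. WT replicate 2 was the highest WT library for 7 of the 10 factors and the lowest for Rbpjl and Bhlha15. WT replicate 1 was the lowest for 6, Ptf1a, Nr5a2, Pdx1, Gata6, Sox9 and Foxa2. The coefficient of variation within WT was 6.85% for Gata6, 9.85% for Nr5a2, 21.8% for Ptf1a, 24.4% for Pdx1, 31.3% for Sox9 and 41.9% for Rbpjl. In KO it was 14.3% for Gata6, 4.85% for Nr5a2, 10.3% for Ptf1a, 2.30% for Pdx1, 8.34% for Sox9 and 21.9% for Rbpjl. Of these 6 factors, Gata6 was the one with the wider spread in KO.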

How the data were processed

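Ribosome footprints were measured in 3 WT and 3 Mettl18 KO libraries of 266-6 cells, grouped by their titles. The build was mm10 and the tools STAR 2.7.0a, UMI-tools 1.1.2, cutadapt 3.7 and CASAVA 1.8, per the submitters' processing notes. For the counting program, annotation release and strand setting, nothing is given in the sources used here. The authors deposited raw counts per Ensembl transcript, with 1 length value per row whose unit is not stated. Isoform rows repeat shared footprints. The lowest length value was -9.

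Of 54710 rows with a count, those with 6 identical counts were merged, which left 39355. edgeR 4.0.16 (R 4.3.3) was run with filterByExpr, TMM and genotype as the only term, on 30588 rows. Each standard error is the size of the log2 change over the root of its F value, and is approximate. The test was run on simulated counts first. Alternatives were other scalings and filters, DESeq2 1.42.0, limma 3.58.1 (voom), unmerged rows, a replicate block, KO replicates 2 and 3 summed, the length trend removed, each library left out and, chosen after seeing the data, thinned libraries (10 draws). The rule for neighbouring rows, the ratios to Ptf1a and the motifs were also chosen after seeing the data. The factors, all named, and the lists were chosen with earlier results of these data known. Tyrosine content and other pathway genes were not analysed here.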

Additional observations from a re-analysis of the deposited data

How the results depend on the processing

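With all libraries, 5 factors were called higher and 0 lower. The numbers stayed at 5 and 0 under all 3 other scalings, no filter and the stricter filter, limma-voom, DESeq2's Wald test, unmerged rows and the length trend removed. With KO replicates 2 and 3 summed, 1 factor, Sox9, was called higher, and over all transcripts 436 were called higher and 356 lower, in place of 1571 and 1314. Leaving out each library gave 1 to 5 factors called higher and 0 lower, and 368 to 2223 transcripts called higher and 302 to 1718 lower. These settings test fewer libraries. After thinning, 4 factors, all but Ptf1a, were called higher by the median over draws. The log2 fold change of Rbpjl was -0.16 and ran from -0.45 to 0.07 with each library left out, above 0 without WT replicate 1; the cause was not tested. Deviations from the group means correlated between genotypes at -0.042, 0.405 and -0.381 for replicate numbers 1, 2 and 3. For libraries of unlike number the values ran from -0.584 to 0.622. Deviations of 3 libraries from their mean sum to 0, which ties these values together. They therefore cannot decide whether the numbers pair the libraries. With the replicate block, 4 factors were called higher, since Ptf1a had an adjusted p of 0.0513, and 1168 transcripts were called higher and 944 lower. The share of all calls that were higher in KO was 54.5%, and 44.4% with library totals alone, where the median of all log2 fold changes was -0.14 and the 5 factors were still called higher. Foxa3 gave no value with at least 5 CPM in 3 libraries and was tested in 3 of 10 thinned draws, and Bhlha15 gave one only with no filter. They had few counts, 36 in each genotype for Foxa3 and 8 in WT and 40 in KO for Bhlha15. Levels per residue of a protein table and lists of other genes were not run.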
